A study of Rattus norvegicus with 24 samples.

Results

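*Sstr1* and *Sstr2* encode somatostatin receptors 1 and 2, and they are 2 of the 32623 genes with read counts in carotid bodies (CBs) of normotensive and hypertensive rats. Each CB is a minute chemosensory organ that lies where the common carotid artery divides and senses blood oxygen, carbon dioxide and acidity. CBs of 6 male Wistar-Kyoto rats (WKY/NHsd) and 6 male spontaneously hypertensive rats (SHR/NHsd, SH rats), labelled as 12 to 14 weeks old, were sampled with no treatment named in the labels, and the left and right CB of each rat were sequenced separately as polyadenylated RNA, giving 24 libraries. WKY is the normotensive control strain for the inbred SHR strain, so the groups differ by strain, and blood pressure and any other inherited difference cannot be told apart here. The rows of the count table were found through the study's list of strain differences by gene, which pairs *Sstr1* with ENSRNOG00000048145 and *Sstr2* with ENSRNOG00000002793. Both genes were thus chosen by their measured strain difference in these libraries, and their levels in WKY and SH rats are a description with no test. Side (left or right CB), the variation among rats of a strain and the companion genes were not used in that choice.

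Somatostatin is a peptide released by neurons and endocrine cells that restrains secretion and excitability in its target cells. Its receptors are G protein-coupled receptors that act through Gi/o proteins: they lower adenylyl cyclase activity, open inwardly rectifying potassium channels and close voltage-gated calcium channels. Sstr2 is rapidly internalized after binding its ligand, and Sstr1 and Sstr2 share the natural ligands somatostatin and cortistatin. In the CB the oxygen-sensing cells are the glomus cells, catecholamine-containing cells of neural crest origin that lie in clusters among glia-like sustentacular cells and capillaries.

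The bases upstream of each gene are shown because both receptors were measured together in the same libraries and because somatostatin signalling acts on cyclic AMP, whose transcriptional element, the cAMP response element (CRE, TGACGTCA), is a sequence that can be looked for. The sequences are from RefSeq build GRCr8, whose strain is neither of those sequenced, and the builds of the counts and of RefSeq were not compared, since the former is not stated. The 250 bases before the start of *Sstr2* on the plus strand of chromosome 10 (chr10:99163103-99163352) are given whole, with the CRE in capitals. For *Sstr1*, also on the plus strand, the last 30 bases before the start on chromosome 6 (chr6:81567453-81567482) are given, with the CRE core (CGTCA) in capitals, because a longer RefSeq gene record begins inside the upstream window.
Sstr2 upstream: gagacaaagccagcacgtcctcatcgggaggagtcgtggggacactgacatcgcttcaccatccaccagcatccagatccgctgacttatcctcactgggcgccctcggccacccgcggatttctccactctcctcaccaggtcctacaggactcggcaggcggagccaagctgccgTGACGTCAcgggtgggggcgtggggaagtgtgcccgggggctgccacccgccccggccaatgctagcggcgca
Sstr1 upstream: gacctcgcaaaagaaCGTCAgagcgccgcc
In *Sstr2* the full CRE begins at position -73 from the start. It occurs on either strand in 1.59% of the 33469 windows of 250 bases upstream of RefSeq starts. The CRE core in *Sstr1* begins at position -15, and 18.2% of windows hold that motif, which is also contained in every full CRE. Both windows hold a CCAAT box (CCAAT, at -105 in *Sstr1* and -17 in *Sstr2*, 34% of windows) and the GCGTG core of the hypoxia response element (at -70 and -56, 25.9% of windows). A GC box (GGGCGG, 30.5% of windows) is in the *Sstr2* window alone, at -26. Neither window holds TATAAA (12.9% of windows) or the E-box CACGTG (5.59% of windows). The *Sstr2* window is 66.4% G and C with 20 CG pairs, against 54.4% with 9 CG pairs for *Sstr1* and a median of 51.2% over all windows. A match is a description of these letters and says nothing of binding in the CB.

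The libraries held 9198341 to 13655419 counts each, with a median of 9818602.5. One library stood apart from the rest. In SH rat 34 the right CB gave 3 counts of *Sstr1* and 0 of *Sstr2*, at or under the 3 counts taken as the floor, whereas the left CB of the same rat had 2418 and 362. In this library the glomus cell markers that could be named (*Dbh*, *Chga*, *Chgb*, *Ret* and *Gata3*) summed to 77.5 CPM (counts relative to the TMM-scaled library total), against 929 to 1417 in WKY libraries and 1180 to 2056 in the other SHR libraries. *Tg*, the thyroglobulin gene of the thyroid, reached 7849 CPM there, against 0.097 to 10.7 in WKY and 0.461 to 218 in the other SHR libraries. The study's own table of strain differences leaves this library out, and the values below are for the other 23 (12 WKY, 11 SHR) unless all 24 are named. The highest *Tg* among the 23, 218 CPM, was in the right CB of SH rat 30, where *Sstr1* was 255 and *Sstr2* 42.4 CPM, the highest and second highest right-side SHR values. Only genes higher in SHR carry a symbol in the list as it could be read here, so 5 of the 20 glomus markers and 0 of 6 sustentacular markers could be named, and their own strain differences are biased upwards by that naming.

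Both receptors were higher in CBs of SH rats, and the gap was wider for *Sstr2* than for *Sstr1* in fold. *Sstr2*, whose product is the main target of octreotide in neuroendocrine tissue, was read at 154 to 271 counts per library in WKY and 282 to 521 in SHR. In left CBs of WKY its level was 17.9 CPM at the lowest, 21.3 at the median and 24 at the highest, and in right CBs it was 17, 21.4 and 27.7 CPM. In left CBs of SH rats the corresponding levels were 33.2, 38.9 and 53.5 CPM, and the 5 right CBs had 42.4, 37.4, 41.8, 48.7 and 30.4 CPM (rats 30, 31, 33, 36 and 37). All 11 SHR libraries lay above all 12 WKY libraries. With the sides of a rat averaged, *Sstr2* averaged 21.3 ± 2.14 CPM over WKY rats (SD, n = 6 rats; 18.2 to 23.7) and 40.4 ± 5.65 CPM over SH rats (n = 6; 35.3 to 51.1), a 1.9-fold difference and a log2 fold change of 0.92 (SE 0.09, edgeR with side as a covariate). Over all genes tested, 0.926% had every SHR library above every WKY library, which is the background for a gene that this contrast selected. In tissue RNA, fewer cells of a type and less RNA per cell cannot be told apart, so these are levels per CB RNA and not per glomus cell.

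*Sstr1*, which has the same ligands, was read at 1389 to 2336 counts per library in WKY and 1996 to 3412 in SHR. In left CBs of WKY its level was 167 CPM at the lowest, 189 at the median and 220 at the highest, and in right CBs it was 147, 193 and 246 CPM. In left CBs of SH rats it was 208, 256 and 290 CPM, and the 5 right CBs had 255, 248, 253, 249 and 228 CPM in the same order of rats. The libraries overlapped: 8 of 11 SHR libraries lay above every WKY library, and the left CB of SH rat 30 (208 CPM) was below the right CB of WKY rat 33 (246 CPM). The rats did not overlap once their sides were averaged. *Sstr1* averaged 189 ± 24.4 CPM over WKY rats (SD, n = 6 rats; 157 to 225) and 252 ± 16.5 CPM over SH rats (n = 6; 232 to 270), a 1.33-fold difference and a log2 fold change of 0.41 (SE 0.07). Over all genes tested, 3.39% had every SHR rat above every WKY rat, 20.1% passed an adjusted p of 0.05 in either direction and 10.2% as higher in SHR, with a median log2 fold change of 0.01 over the 14258 genes.

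**Figure D1:**
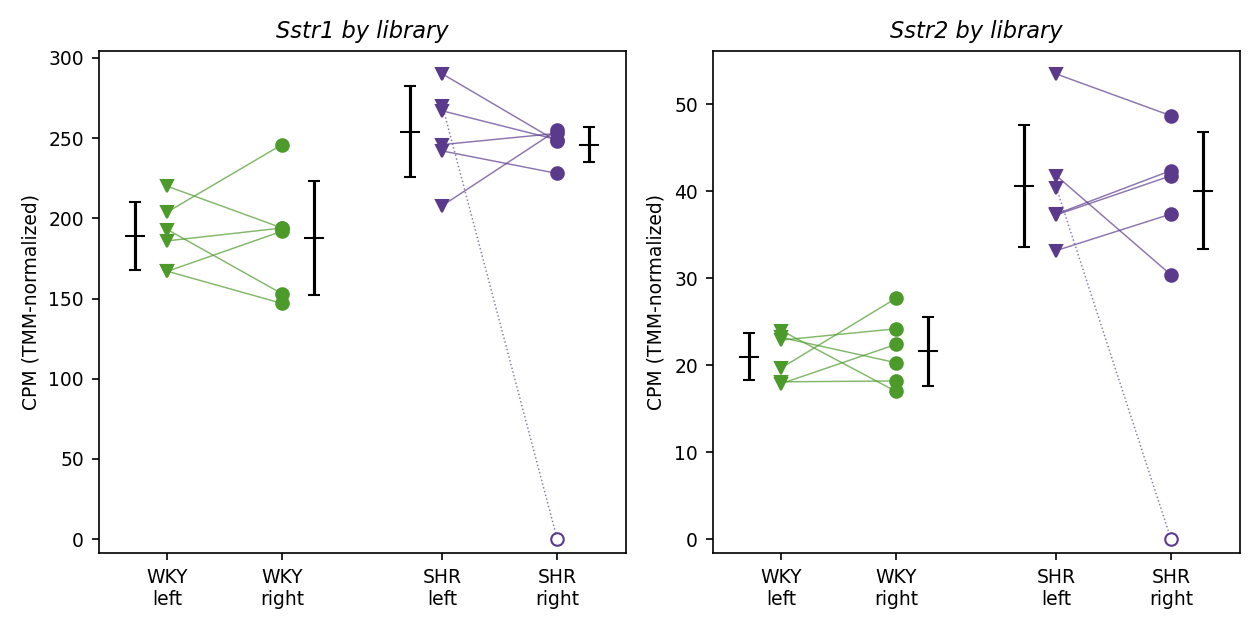
CPM (TMM-scaled) of *Sstr1* and *Sstr2* in each library, with triangles for left and circles for right CBs, lines joining the CBs of a rat, and bars for the mean ± SD of each group over the 23 libraries. The open circle at 0 is the right CB of SH rat 34, which is in none of the bars, and every other SHR value of *Sstr2* lies above every WKY value.

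The strain gap was of like size on either side. In left CBs *Sstr2* differed by 0.95 on the log2 scale (SE 0.12; 21 ± 2.72 against 40.6 ± 6.98 CPM, n = 6 and 6) and in right CBs by 0.88 (SE 0.14; 21.6 ± 3.98 against 40.1 ± 6.78 CPM, n = 6 and 5). All SHR values exceeded all WKY values on both sides, as they did for 2.29% of genes in left CBs and 2.62% in right CBs. For *Sstr1* the difference was 0.42 (SE 0.09) in left and 0.39 (SE 0.11) in right CBs, where 5 of 6 and 4 of 5 SHR libraries lay above every WKY library of that side. The test of strain by side itself gave an interaction of -0.03 (SE 0.14, adjusted p = 0.999) for *Sstr1* and -0.06 (SE 0.18, adjusted p = 0.999) for *Sstr2* with edgeR's quasi-likelihood test, Benjamini-Hochberg adjusted over all genes, so a dependence of the strain gap on side was not detected. Over all genes, 0 (0%) passed for the interaction, with 438 at an unadjusted p under 0.05 in edgeR and 475 in DESeq2, which also called 0. Adding the right CB of SH rat 34 lowered the strain differences to 0.27 (SE 0.35) for *Sstr1* and 0.79 (SE 0.31) for *Sstr2*. It also lowered the share of genes passing to 10.4% in either direction and 5.35% as higher in SHR.

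Neither receptor differed detectably between left and right CBs. Over the 11 rats with both sides, right minus left *Sstr1* was -0.02 ± 0.21 on the log2 CPM scale (mean ± SD), with the right CB higher in 5 of 11 rats (exact sign-flip permutation over rats, two-sided p = 0.741) and a 95% interval of -0.17 to 0.12. Single WKY rats ran from -0.33 (rat 36) to 0.27 (rat 33), and SH rats from -0.22 (rat 31) to 0.29 (rat 30). For *Sstr2* the difference was 0.01 ± 0.31, with the right CB higher in 7 of 11 rats (exact sign-flip permutation test, p = 0.9) and an interval of -0.20 to 0.22. Its single values ran from -0.50 (WKY rat 36) to 0.49 (WKY rat 33), the rats that were also lowest and highest in WKY for *Sstr1*. The average size of the left-right gap, sign ignored, was 0.18 for *Sstr1* and 0.25 for *Sstr2*. These are gaps between single CBs. The strain differences of 0.41 and 0.92 are between groups and were used to choose the genes, so the sizes are not compared. edgeR gave side differences of -0.03 (SE 0.07, adjusted p = 0.983) and 0.01 (SE 0.09, adjusted p = 0.997), and 0 genes (0%) passed for side, with 702 at an unadjusted p under 0.05 and 718 in DESeq2, which also called 0.

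The ratio of *Sstr2* to *Sstr1* was higher on average in SHR, a strain difference that was not tested. Read as *Sstr2* counts per 100 *Sstr1* counts, a quantity that is not corrected for transcript length and so does not rank the receptors within a CB, WKY rats had 11.5 ± 2.12 (SD, n = 6; 8.81 to 15.1) and SH rats 16.1 ± 2.24 (n = 6; 13.3 to 19.8). The log2 ratio was 0.50 higher in SHR. This ratio needs no library scaling, and its groups overlapped: 6 of 11 SHR libraries lay above the highest WKY library, the right CB of rat 41, at 16.4. The lowest SHR library was the left CB of rat 31, at 11.5. As both genes came from the strain contrast, this is a description. The ratio did not differ detectably by side (0.03 ± 0.27 on the log2 scale, right higher in 6 of 11 rats, exact sign-flip permutation test, p = 0.692, interval -0.15 to 0.21).

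**Figure D2:**
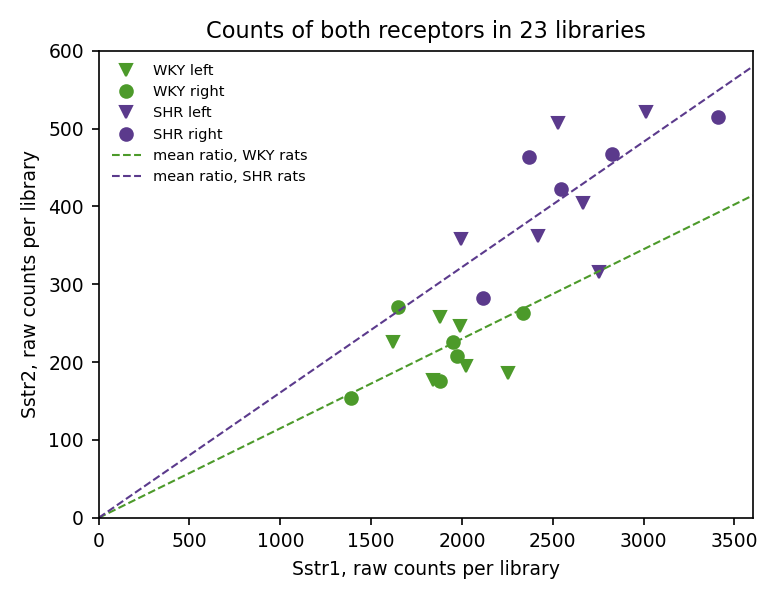
Raw counts of *Sstr2* against raw counts of *Sstr1* in the 23 libraries, with triangles for left and circles for right CBs and dashed lines for the mean ratio of each strain's rats (11.5 and 16.1 *Sstr2* counts per 100 *Sstr1* counts). Most SHR points lie above the WKY line, and the left CB of SH rat 31 (2754 and 316 counts) lies on it.

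Counting error was smaller than the spread among CBs. The coefficient of variation within a strain and side was 4.38% to 18.9% for *Sstr1*, where counting alone gives 1.71% to 2.68% per library. For *Sstr2* it was 13% to 18.4%, where counting alone gives 4.38% to 8.06%. Among rats *Sstr1* varied by 13% in WKY and 6.53% in SHR, and *Sstr2* by 10% and 14%.

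The levels were set beside the glomus cell markers, genes of catecholamine synthesis (*Dbh*), secretory granules (*Chga*, *Chgb*), the neurotrophic receptor *Ret* and the transcription factor *Gata3*. These and the other companion genes named here carry a symbol because the study's list has them as higher in these same SHR libraries. Their strain differences are therefore given as a description with no p, and counts of members passing are set beside the background of genes with a symbol, of which 64.2% of 1273 passed as higher and whose log2 fold changes had a median of 0.41. Of the 5 markers 4 passed and *Gata3* (log2 fold change 0.33, SE 0.15) did not, and with all 24 libraries *Ret* was the 1 that passed. *Ret* was 38.3 ± 4.88 CPM in WKY and 63.3 ± 9.19 in SHR (0.71, SE 0.09), and *Chga* was 602 ± 69.5 and 776 ± 124 (0.36, SE 0.09). Per 100 CPM of the summed markers, *Sstr1* was 15.8 ± 2.92 in WKY (SD, n = 6 rats; 12.1 to 20.6) and 15.9 ± 1.57 in SHR (n = 6; 13.7 to 18), and 0 of 6 SH rats lay above every WKY rat. *Sstr2* on the same scale was 1.77 ± 0.0594 in WKY (1.66 to 1.83) and 2.55 ± 0.342 in SHR (2 to 2.97), and 6 of 6 SH rats lay above every WKY rat, a log2 difference of 0.52 against 0.02 for *Sstr1*. The markers were nameable because they were higher in SHR, so dividing by them lowers the strain difference of any gene. The sum is mostly *Chga* and *Chgb* (602 and 538 CPM in WKY, against 38.3 for *Ret*, 23.1 for *Dbh* and 5.49 for *Gata3*). Those granule genes differed by 0.36 and 0.40, less than the 0.71 of *Ret* and of *Dbh*, so these values depend on the markers summed. The share of all genes with no overlap on this scale was not computed. In the right CB of SH rat 34 *Sstr1* was 0.479 per 100 CPM of markers, under the lowest rat's 12.1, and *Sstr2* was 0 with 626 marker counts.

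**Figure D3:**
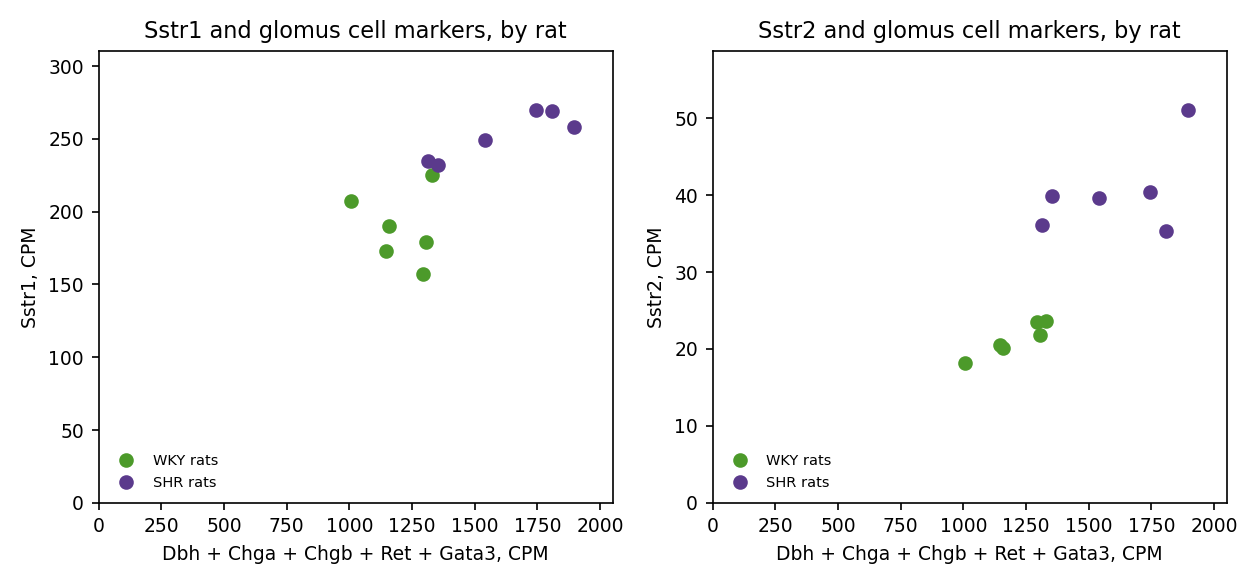
Mean CPM of *Sstr1* (left panel) and *Sstr2* (right panel) of each rat against the summed CPM of *Dbh*, *Chga*, *Chgb*, *Ret* and *Gata3*, over the 23 libraries, with the 2 sides averaged except in SH rat 34 (left CB alone). *Sstr2* of SH rats (35.3 to 51.1 CPM) lies above that of WKY rats (18.2 to 23.7 CPM), and so does *Sstr1* (232 to 270 against 157 to 225 CPM). As these ranges do not overlap, this holds at any marker sum, and both genes were chosen by this contrast. The part of the markers was not tested. The 3 WKY rats with marker sums of 1293 to 1329 CPM had 157 to 225 CPM of *Sstr1*. The pair of SH rats at 1313 and 1352 CPM had 235 and 232.

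Nameable markers of other cells also differed by strain, and their part in the receptor levels was not tested. The neuronal filament genes *Prph* and *Nefh* (2 of 5 neuronal markers nameable) summed to 179 to 277 CPM in WKY and 326 to 428 in SHR, and to 24.1 in the right CB of SH rat 34. The sums of the 23 libraries did not overlap, nor did *Prph* alone, whereas *Nefh* did. Over all genes tested, 0.926% had every SHR library above every WKY library. That share was not computed for genes with a symbol. *Prph* and *Nefh* both passed in the 23 libraries, and 0 of 2 did with all 24. The macrophage markers (7 of 9 nameable) summed to 82.8 to 143 against 120 to 224 CPM, and the mast cell markers (3 of 5) to 1.43 to 3.71 against 3.69 to 25. All 7 macrophage markers passed with libraries as the unit and 4 of 7 with counts summed per rat. In left CBs alone 3 of 7 passed and in right CBs alone 0 of 7. Of the mast cell markers 3 of 3 passed with either unit and in left CBs alone, and 2 of 3 in right CBs alone. Among genes with a symbol 64.2% passed as higher in the 23 libraries, and the share in the other settings was not computed. Fewer genes were called over the table in each of those settings. The endothelial markers (3 of 8 nameable) summed to 174 to 239 against 235 to 302 CPM, the fibroblast markers (5 of 8) to 395 to 649 against 517 to 928, the smooth muscle markers (4 of 6) to 318 to 1028 against 529 to 1337 and the adipocyte markers (4 of 5) to 45.2 to 81.1 against 52.3 to 120. With counts summed per rat 1 member of each of these lists passed, against 2, 3, 1 and 2 with libraries as the unit. The thyroid gene *Tg*, 1 of 3 thyroid markers nameable, was 1.68 ± 2.05 CPM in WKY and 23.3 ± 43.4 in SHR (log2 fold change 3.17, SE 1.08). Its difference was 1.71 without SH rat 30, and it then no longer passed. Leaving out SH rat 31 or 37, or any single WKY rat but rat 32, lost the call as well. Nor did *Tg* pass with counts summed per rat, in either side alone or with all 24 libraries. Since the symbols come from genes higher in SHR, 0 members could have been seen to fall.

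Among rats of the same strain the receptors were not seen to vary together. Over 6 WKY rats Pearson's r of *Sstr1* and *Sstr2* was -0.188 (exact permutation p = 0.713; Spearman's rho -0.0857, exact permutation p = 0.919), and over 6 SH rats it was 0.138 (exact permutation p = 0.829; rho 0.143, exact permutation p = 0.803). Without the 2 rats farthest from the median *Sstr1*, r was -0.848 and -0.347. Against the summed glomus markers, *Sstr2* in WKY rats gave the highest r (0.952, exact permutation p = 0.00833; rho 0.886, exact permutation p = 0.0333), and r was 0.847 without the 2 rats farthest from the median marker sum. *Sstr1* in SH rats came next (r = 0.907, exact permutation p = 0.0264; rho 0.714, exact permutation p = 0.136; r = 0.567 without the 2 farthest rats). Adjusted over the 8 relations computed, p was 0.0667 and 0.106 by the permutation test of r, and 0.267 and 0.544 by that of rho, so neither passed 0.05. The other pairings gave r = -0.18 for *Sstr1* in WKY and 0.479 for *Sstr2* in SHR (exact permutation p = 0.728 and 0.364; rho 0.143 and 0.371, p = 0.803 and 0.497; r = -0.475 and 0.422 without the 2 farthest rats). The left and right CBs of a rat were not detectably related after removing strain means: r was 0.304 for *Sstr1* (permutation p = 0.4; rho 0.236, p = 0.499) and 0.0992 for *Sstr2* (permutation p = 0.776; rho 0.155, p = 0.668) over 11 rats, and 0.41 and -0.00945 without the 2 farthest rats.

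Of the other members of the somatostatin system (the ligands *Sst* and *Cort* and the receptors *Sstr3*, *Sstr4* and *Sstr5*), 1 of 5 could be matched to a row. *Sstr3*, the receptor found on neuronal primary cilia, had 0 to 31 counts per library. Its mean was 1.51 ± 0.664 CPM over WKY rats and 1.92 ± 0.529 CPM over SH rats (SD, n = 6 and 6 rats; log2 fold change 0.29, SE 0.35), and its libraries overlapped widely. For rat 34 of the SHR strain, *Sstr3* counts were 6 on the right (0.743 CPM) and 25 on the left (2.79 CPM). Other than that right-side library, SHR libraries held 7 to 31 counts (0.736 to 3.1 CPM), and WKY libraries 0 to 28 (0 to 2.73 CPM). Whether *Sstr3* was low there as *Sstr1* and *Sstr2* were was not tested, and counts this low are too few to tell.

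Downstream of the receptors, 7 of 70 listed transduction genes could be named. Their median log2 fold change was 0.31, below the median of 0.41 over all genes with a symbol, and 5 of 7 passed as higher, near the 64.2% of those genes. *Rgs7bp*, whose product anchors regulators of G protein signalling of the R7 family at the membrane, had the widest gap of the 7 (2.79 ± 0.625 CPM in WKY against 6.15 ± 0.828 in SHR; 1.10, SE 0.15). *Adcy5*, an adenylyl cyclase inhibited by Gi, was 65.6 ± 6.68 and 80.6 ± 8.63 CPM (0.30, SE 0.07). *Shank3*, a postsynaptic scaffold protein of a family whose PDZ domains bind somatostatin receptor tails, was 133 ± 16.4 and 170 ± 7.51 CPM (0.35, SE 0.08). The log2 fold changes were 0.31 (SE 0.10) for *Cacna1a*, the pore subunit of P/Q-type calcium channels, and 0.29 (SE 0.09) for *Rgs19*, an activator of Gi GTPase activity. The regulators *Rgs6* (0.29, SE 0.11) and *Rgs14* (0.44, SE 0.17) were the 2 that did not pass. With counts summed per rat, where 2041 genes were called over the table against 2863, *Rgs19* did not pass either, leaving 4. With all 24 libraries *Rgs7bp* was the 1 that passed. Of 40 other receptors of transmitters and peptides that couple to Gi/o, 5 could be named, with a median of 0.66, and 3 of 5 passed as higher, again near the 64.2%. These were the neuropeptide Y receptor gene *Npy1r* (43.3 ± 3.96 against 57.9 ± 6.13 CPM; 0.40, SE 0.08), the cannabinoid receptor gene *Cnr1* (21.2 ± 2.84 against 30 ± 5.69; 0.48, SE 0.11) and the nociceptin receptor gene *Oprl1* (1.11 ± 0.299 against 2.15 ± 0.616; 1.01, SE 0.24). The adrenergic *Adra2b* (0.66, SE 0.29) and the histamine *Hrh3* (0.72, SE 0.30) did not pass. With all 24 libraries *Cnr1* no longer passed, leaving 2.

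**Figure D4:**
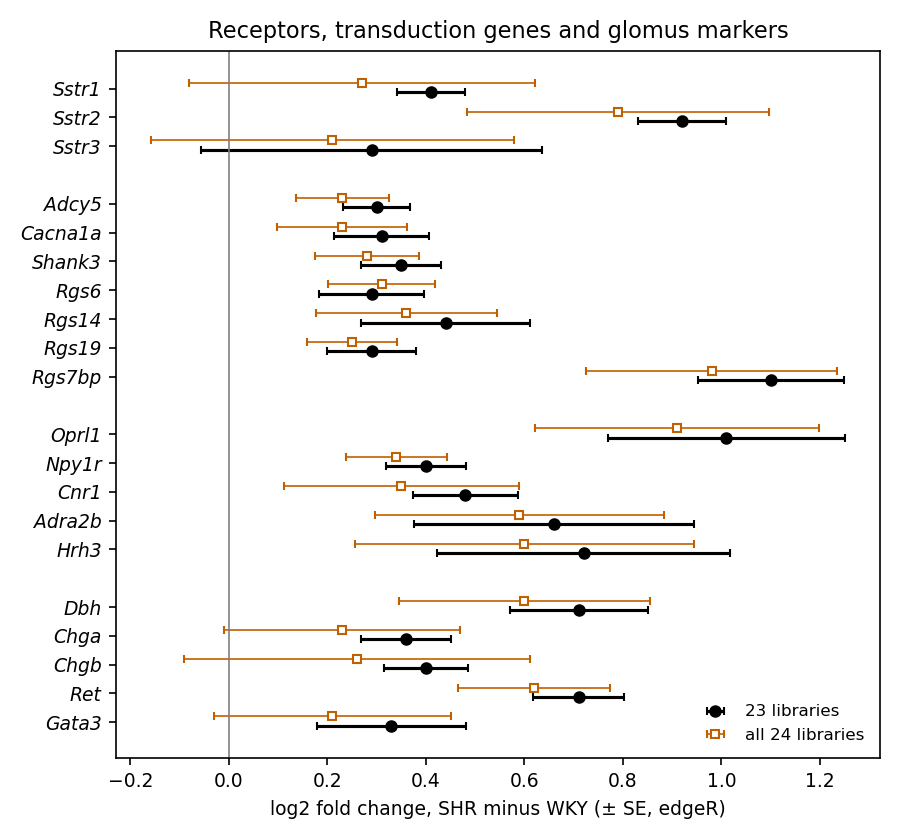
Log2 fold change, SHR minus WKY, with its standard error from edgeR, for somatostatin receptors, transduction genes, other Gi/o-coupled receptors and glomus markers, in 4 blocks from top to bottom. Black circles are the 23 libraries and open squares all 24: *Sstr2* lies at 0.92 and 0.79, *Sstr1* at 0.41 and 0.27, and with 24 libraries the error bars of *Sstr1*, *Sstr3*, *Chga*, *Chgb* and *Gata3* cross 0.

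Few genes beside the receptors on their chromosomes could be named. Of the 5 protein-coding genes on each side of *Sstr2* in RefSeq GRCr8, 3 of 10 had a symbol. *Cog1*, a subunit of a Golgi tethering complex and the next gene on one side, was 69.9 ± 3.52 CPM in WKY and 84 ± 6.9 in SHR (0.28, SE 0.05). *Slc39a11*, a zinc transporter gene and the next on the other side, was 12.5 ± 1.56 and 16.9 ± 4.48 CPM (0.46, SE 0.13), and the transcription factor gene *Sox9* had a log2 fold change of 0.46 (SE 0.19). *Cog1* and *Slc39a11* passed in the 23 libraries, but *Slc39a11* did not with counts summed per rat, with all 24 libraries or in either side alone. In each of these settings fewer genes were called over the table. *Sstr2* was chosen by this contrast, and the neighbours are nameable because the study's list has them as higher in SHR. Their log2 differences are therefore not compared with its 0.92. Of the 10 neighbours of *Sstr1*, 1 had a symbol, the mitochondrial carrier gene *Slc25a21* (0.39, SE 0.22), which did not pass.

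After strain and side means were removed from the log2 CPM of the 23 libraries, the genes whose pattern was most like each receptor were ranked by Pearson's r among the 1272 other genes with a symbol, as a description. The libraries share tissue, scaling and, in pairs, a rat. For *Sstr2* these were *Tmem151b* (r = 0.865), *Scn3b*, a sodium channel beta subunit (0.819), *Chd5*, a chromatin remodeller (0.789), *Lhfpl5* (0.777) and *Dkk3* (0.75). *Tmem151b* was also the highest of all 14257 other genes. For *Sstr1* they were *Asrgl1*, an asparaginase (0.739), *Tnc*, the matrix protein tenascin C (0.717), *Cdh9*, a cadherin (0.619), *Tti2* (0.595) and *Zdhhc23* (0.581). Among all 14257 other genes these ranked 2, 5, 50, 69 and 86, below a gene with no symbol (r = 0.74). The 5 named for *Sstr2* ranked 1, 4, 8, 16 and 30. The lists share 0 genes, and the receptors had r = 0.169 with each other. *Sstr2* had r = 0.686 with *Ret*, 0.601 with *Chga*, 0.57 with *Chgb*, 0.418 with *Dbh* and 0.118 with *Gata3*. *Sstr1* had 0.161, 0.373, 0.477, 0.000319 and -0.187 with these markers in the same order.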

How the data were processed

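Polyadenylated RNA of 24 CBs was sequenced from stranded libraries. The authors aligned the reads with STAR and used featureCounts to assign them to genes. The deposited values are raw counts of 32623 Ensembl genes, with no normalization. Versions, build, annotation and strand settings are not given in the sources used here. The authors' own fold changes and adjusted p-values, in a supplementary list, were not used; 1273 identifiers took their symbols from it.

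The 2 receptors and the gene lists were chosen with earlier results of these data known. Named genes were the receptors, fixed lists of the somatostatin system, its transduction, other Gi/o receptors and cell type markers where a symbol could be paired, neighbours in RefSeq GRCr8, and the 5 genes most like each receptor. RefSeq held no Ensembl identifiers, so neighbours were matched by symbol, and upstream sequences were found for both receptors.

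Here edgeR 4.0.16 (TMM, robust quasi-likelihood test, R 4.3.3) was fitted to all genes with a mean normalized count above 10, 14258 in all, over the 23 libraries of the study's list, with side and strain as terms and Benjamini-Hochberg adjustment at 0.05. This fit treats the CBs of a rat as independent, and summing counts per rat and a rat block were among the alternatives. CPM is TMM-scaled, and means and SDs are over rats with the sides averaged. Correlations were tested by permutation of pairings. The likeness scale added a prior count of 2. DESeq2 1.42.0, limma 3.58.1 (voom, rat as block), other scalings and filters, all 24 libraries, each side alone and leaving out each rat in turn were alternatives. A fit of the same rats with no replicate block was added after seeing the data.

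Left and right CBs with one number come from one rat. The numbers 33, 34, 36 and 37 were used for a WKY and an SH rat each, which are separate animals. No pair of libraries agreed within sampling noise (lowest chi-square per degree of freedom 5.17 over 253 pairs). Tables used pandas 2.3.3, numpy 2.4.6 and scipy 1.17.1, and figures matplotlib 3.10.9. The tests were checked on simulated counts.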

Additional observations from a re-analysis of the deposited data

Results flagged for a closer look

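Across 16 groups of 4 to 10 values checked for a single distant sample by Dixon's criterion, 3 had one, and chance alone gives about 1 in 20 groups. In right CBs of SH rats, *Sstr1* of rat 37 (228 CPM) lay below the other 4 libraries, which ran from 248 to 255 CPM, with a gap of 0.738 of the range. With SH rat 34 included in that group its right CB became the distant one, at 0.371 CPM of *Sstr1* (gap 0.893 of the range, n = 6), beside 0 counts of *Sstr2*, 77.5 CPM of summed glomus markers and 7849 CPM of *Tg*. Among SH rats, the mean *Sstr2* of rat 36 (51.1 CPM) lay above the others, which ran from 35.3 to 40.4 CPM (gap 0.677 of the range, n = 6), and both of its CBs were the highest of their side (53.5 and 48.7 CPM). Rat 36 also had the largest summed glomus markers (1896 CPM), and the part of the markers in its *Sstr2* level was not tested.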

How the results depend on the processing

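*Sstr1* and *Sstr2* were higher in SHR under every alternative, though with all 24 libraries *Sstr1* differed by 0.27 with an SE of 0.35. As single rats were left out, the log2 differences were 0.35 to 0.46 and 0.84 to 0.96. The number of genes called then ran from 2193 to 2831, and the log2 ratio of *Sstr2* to *Sstr1* from 0.42 to 0.58. Both genes were chosen by this contrast in these libraries, so their keeping its direction is a description and no test. Against 2863 genes called by strain, counts summed per rat gave 2041, all 24 libraries 1483, left CBs alone 1270 and right CBs alone 838. The 4 rat numbers found in both strains do not pair the rats (correlations of their deviations -0.203 to 0.0491): with the number as a replicate block, 1568 genes were called and the receptors differed by 0.37 and 0.96, against 1638 genes, 0.35 and 0.99 in the same rats with no block. With the rat as a block, which joins left and right CBs, side differences were -0.02 and 0.01 and 0 genes were called for side or interaction (970 and 637 at an unadjusted p under 0.05). The block turned the interaction of *Sstr1* to 0.01, with no call.

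Directions that turned were all of uncalled values. With all 24 libraries the side difference of *Sstr2* became -0.12 in edgeR and -0.55 over rats, and left-right correlations became -0.21 (*Sstr1*) and -0.02 (*Sstr2*); that library holds the receptors at or under 3 counts. The adjusted permutation p of the correlations with glomus markers fell to 0.0333 for *Sstr2* in WKY (r = 0.95) and *Sstr1* in SHR (r = 0.92). No WKY library was added, and r of *Sstr2* in WKY was 0.95 in either set. As p is adjusted over the 8 relations together, an adjusted p can move with the p of another relation. In SHR the added right CB enters the mean of rat 34, with 3 counts of *Sstr1* and 77.5 CPM of glomus markers. As single rats were left out, right minus left ran from -0.05 to 0.01 for *Sstr1* and -0.04 to 0.06 for *Sstr2* over rats, from -0.03 to 0.06 for *Sstr2* in edgeR and from -0.00 to 0.08 for the ratio. Interactions ran from -0.10 to 0.04 (*Sstr1*) and -0.17 to 0.04 (*Sstr2*). Correlations of the receptors ran from -0.93 (without WKY rat 33) to 0.23 in WKY and from -0.08 to 0.48 in SHR, with glomus markers from -0.79 to 0.23 for *Sstr1* in WKY and from -0.05 (without SH rat 36) to 0.83 for *Sstr2* in SHR, and between the sides from -0.30 to 0.30 for *Sstr2*. The ratio was not run with all 24 libraries. Low counts limit *Sstr3* and the rarer receptors, not *Sstr1* or *Sstr2*.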
